A study of Mus musculus with 15 samples.

Results

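The 9 genes described here are Aldh7a1 and 8 other genes of the aldehyde dehydrogenase family, Aldh2, Aldh5a1, Aldh6a1, Aldh9a1, Aldh3a2, Aldh4a1, Aldh1b1 and Aldh18a1, out of 27179 gene IDs in the count table. Aldh7a1 was chosen on its measured values in these libraries, because it was lower in transgenic than in wild-type mice, and its difference between the genotypes is therefore given as a description with no test. The other 8 were chosen as relatives to set beside it. All 9 passed the filter on low counts, as did 17151 genes in all. The table held 21 aldehyde dehydrogenase genes, and 20 of them passed. Aldh8a1, with 1 to 8 counts per library, did not.

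The RNA came from brain hemispheres of mice aged 12 months. TG mice were homozygous for human α-synuclein driven by the PLP promoter. Oligodendrocytes, which wrap axons in myelin, use this promoter, and the line is used as a model of multiple system atrophy. WT mice were non-transgenic C57Bl/6 animals matched for age and sex. There were 4 WT female, 4 WT male, 4 TG female and 3 TG male libraries. Whether mice of a group shared a litter or cage is not given in the labels, and each library is treated as a separate mouse. The titles of each group share a prefix number that no other group has, and what it marks is not given. Its part cannot be told apart from that of genotype and sex. A p-value therefore measures the spread between these samples, which may be partly technical. The transgene's own RNA was not analysed here.

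Aldehyde dehydrogenases oxidise aldehydes to acids with NAD or NADP, and each has its own substrates. Aldh7a1 oxidises the semialdehyde formed in lysine breakdown, and its loss in humans traps vitamin B6 and causes pyridoxine-dependent epilepsy. Aldh5a1 does the last step of GABA breakdown, Aldh6a1 acts on valine and thymine products, Aldh4a1 on proline products, Aldh9a1 in carnitine synthesis and on the aldehyde made from putrescine, and Aldh3a2 on fatty aldehydes. Aldh2 and Aldh1b1 are mitochondrial enzymes that clear acetaldehyde and aldehydes from lipid peroxidation, and Aldh18a1 is a synthase that makes the precursor of proline.

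Between 15170772 and 35850998 counts were assigned per library (median 17635366). All listed markers of astrocytes (12), oligodendrocytes (12), neurons (10) and microglia (11) stood at 1 CPM or more in every library. CPM stands for counts scaled to a fixed library total after TMM scaling. Markers of brain regions, in contrast, set libraries of the same group apart. Hoxa5, a gene of the hindbrain and spinal cord, stood at 69.3 to 121 CPM in 4 libraries and at most at 1.97 CPM elsewhere. Gabra6, a gene of cerebellar granule cells, stood at 701 CPM in TG female 3 alone and at most at 1.19 CPM elsewhere. Omp, a gene of olfactory sensory neurons, stood at 42.2 to 159 CPM in 7 libraries and at most at 2.71 CPM elsewhere. Neurod6, a gene of forebrain excitatory neurons, stood at 131 to 171 CPM in 3 libraries, at 55.8 CPM in WT male 2 and at most at 20.3 CPM elsewhere. The libraries were therefore clustered into 4 classes, without the genotype, by marker lists of 5 kinds: excitatory, striatal, cerebellum, hindbrain and hypothalamus. Omp is in none of these lists, and the 4 genes above gave the classes their names. The classes were 7 olfactory (4 WT, 3 TG), 3 cortex (2 WT, 1 TG), 4 hindbrain (2 WT, 2 TG) and 1 cerebellum (TG). Libraries of one class still differed in region markers. Among olfactory libraries, the striatal markers summed to 795 to 2518 CPM and the hypothalamus markers to 89.0 to 231 CPM. Among hindbrain libraries, the hypothalamus markers summed to 48.3 to 174 CPM. No TG male library was in the hindbrain or cerebellum class, so sex and class were unevenly spread over the genotypes.

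Aldh7a1 was lower in every TG library than in every WT library. The gene lies on chromosome 18 of GRCm38 from 56524722 to 56572991 on the minus strand, and its annotated exons merge to 22 blocks. Its level was 24.1 ± 2.52 CPM (SD, n = 7) in TG and 39.3 ± 2.96 CPM (SD, n = 8) in WT, so that TG stood at 61.3% of WT. The TG libraries ran from 21.0 to 27.3 CPM with a median of 24.1 CPM, and the WT libraries from 36.5 to 44.7 CPM with a median of 38.9 CPM. The gap between the groups, from 27.3 to 36.5 CPM, was wider than the whole range of either. The counts behind these levels ran from 362 to 1453 per library. In bulk tissue, fewer cells of a type and less RNA per cell cannot be told apart.

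The levels by class are a description. No TG library reached a WT level over all libraries, so TG had to be lower within each class that held both genotypes. In the olfactory class, the WT libraries stood at 44.7, 36.6, 41.7 and 39.96 CPM and the TG libraries at 24.1, 27.0 and 24.5 CPM. In the hindbrain class, the WT libraries stood at 37.8 and 40.4 CPM and the TG libraries at 23.4 and 21.1 CPM. In the cortex class, both WT libraries stood at 36.5 CPM and the single TG library at 21.0 CPM. The single cerebellum library, which is TG, stood at 27.3 CPM. No WT library fell to the level of any TG library in any class. TG was at 61.9% of WT among olfactory, 56.9% among hindbrain and 57.7% among cortex libraries.

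**Figure D1:**
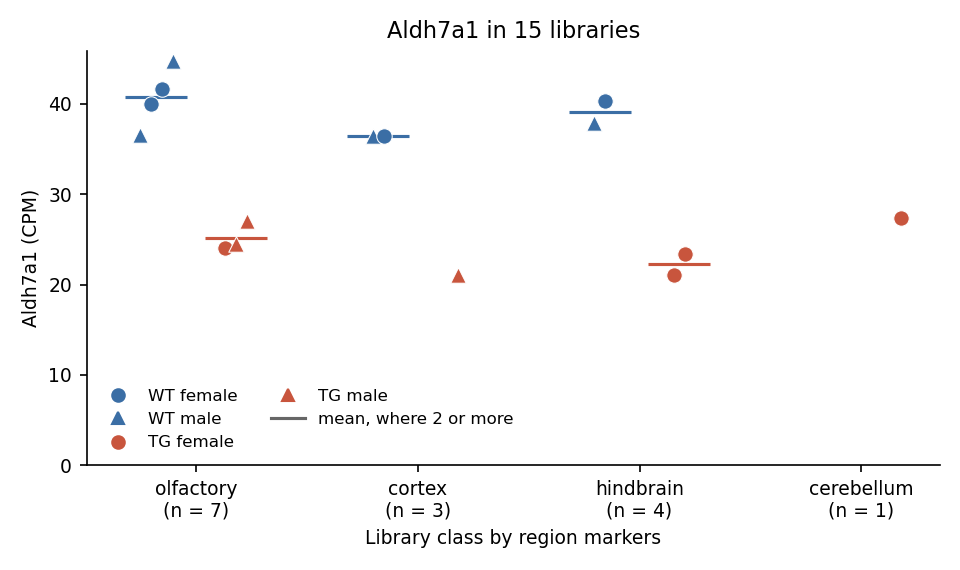
Aldh7a1 in CPM (vertical axis) in each of the 15 libraries, by library class (horizontal axis). Blue is WT and red is TG, circles are females and triangles males, and lines are means of 2 or more libraries. All red points lie between 21.0 and 27.3 CPM and all blue points between 36.5 and 44.7 CPM.

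On the log2 scale, the fitted TG minus WT difference of Aldh7a1 was -0.71 ± 0.08 (SE) with sex as a covariate. With library class added it was -0.75 ± 0.06 for classes from single region genes and -0.74 ± 0.06 for classes from the means of the region lists. The fitted difference was -0.69 ± 0.08 among olfactory, -0.81 ± 0.11 among hindbrain and -0.80 ± 0.14 among cortex libraries. In females it was -0.73 ± 0.11, with a WT mean of 39.6 CPM and a TG mean of 24.0 CPM. In males it was -0.69 ± 0.12, with a WT mean of 38.9 CPM and a TG mean of 24.2 CPM. Of all genes tested, 2.04% had a larger fitted fall than Aldh7a1. The gene with the largest adjusted p still under 0.05 in edgeR was 9030025P20Rik, at -0.97 with an adjusted p of 0.0435, and the next was Fam114a1, at -1.72 with an adjusted p of 0.103.

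Whether the Aldh7a1 difference varied between the sexes or the classes was tested. The choice used the genotype difference over all libraries, which favours a gene with an even difference. These tests are therefore not fully independent of the choice. The female minus male difference of the TG effect was -0.04 ± 0.16 (adjusted p = 0.935, edgeR). The TG effect did not pass a test of variation among the 3 classes that held both genotypes (adjusted p = 0.902, edgeR; 1.0 with classes from list means). Sex itself moved Aldh7a1 by 0.01 ± 0.08 on the log2 scale, female minus male (adjusted p = 0.989, edgeR). Among classes, the hindbrain minus olfactory difference was -0.11 ± 0.07 and the cortex minus olfactory difference -0.20 ± 0.07, both smaller than the genotype difference.

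None of the 8 relatives showed a genotype difference that passed the test. The relatives were named to be compared with Aldh7a1, and their own genotype difference was tested with edgeR over all 17151 genes, of which 0.111% were called, that is, had an adjusted p under 0.05. Of the 19 other aldehyde dehydrogenases tested, edgeR called 0, with 2 at an unadjusted p under 0.05. DESeq2 called 0 with 2 at that level, and limma-voom called 0 with 1. With library class in the fit, edgeR called 0.496% of all genes and 0 of these 19, with 5 at an unadjusted p under 0.05. These 5, Aldh6a1, Aldh9a1, Aldh1b1, Aldh1a7 and Aldh3b2, were all below 0 in that fit, but no direction is read from uncalled values. With classes from list means, edgeR called 0.251% of all genes and 0 of the 19, with 4 at that level. The share of all genes at an unadjusted p under 0.05 is not given here, so none of these counts is read as an excess. TG and WT libraries did not overlap for 0.187% of all genes tested, and of the 20 aldehyde dehydrogenases for Aldh7a1 alone, which was chosen for that difference.

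Among the amino acid enzymes, Aldh5a1 stood at 167 ± 13.6 CPM in TG (SD, n = 7; lowest 143, median 169, highest 182) and 176 ± 22.3 CPM in WT (SD, n = 8; lowest 137, median 186, highest 202). The TG range lay within the WT range. The log2 difference was -0.08 ± 0.10, with a 95% interval from -0.29 to 0.13. Aldh6a1 stood at 81.2 ± 7.33 CPM in TG (lowest 69.9, median 82.1, highest 92.6) and 88.7 ± 11.2 CPM in WT (lowest 75.8, median 86.4, highest 111). Its log2 difference was -0.13 ± 0.09, with an interval from -0.33 to 0.06, and -0.15 ± 0.05 with library class (adjusted p = 0.434, edgeR). The TG and WT ranges of Aldh6a1 overlapped from 75.8 to 92.6 CPM. Aldh4a1 stood at 32.1 ± 4.95 CPM in TG (lowest 23.4, median 31.2, highest 39.4) and 30.0 ± 4.88 CPM in WT (lowest 22.9, median 29.9, highest 36.3), a log2 difference of 0.09 ± 0.13. Aldh18a1 stood at 18.4 ± 1.73 CPM in TG (lowest 17.0, median 17.4, highest 21.5) and 16.9 ± 1.42 CPM in WT (lowest 14.6, median 17.0, highest 18.5), a log2 difference of 0.13 ± 0.08. Neither of these last 2 enzymes, which break down and make the same proline intermediate, passed the test.

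Among the enzymes of amines, lipids and acetaldehyde, Aldh9a1 stood at 30.9 ± 9.12 CPM in TG (lowest 20.004, median 28.0, highest 45.2) and 32.1 ± 7.37 CPM in WT (lowest 24.9, median 28.6, highest 45.2). The highest library of each genotype was of the hindbrain class. Its log2 difference was -0.08 ± 0.19, and -0.19 ± 0.08 with library class (adjusted p = 0.519, edgeR). Aldh3a2 stood at 48.1 ± 6.98 CPM in TG (lowest 41.5, median 45.3, highest 58.4) and 48.2 ± 7.05 CPM in WT (lowest 42.0, median 45.2, highest 61.4), a log2 difference of -0.01 ± 0.11. Aldh2 stood at 16.9 ± 3.39 CPM in TG (lowest 12.8, median 17.6, highest 22.0) and 15.6 ± 2.43 CPM in WT (lowest 12.6, median 15.1, highest 19.1), a log2 difference of 0.09 ± 0.12. For both genes the ranges of the genotypes overlapped. Aldh1b1 stood at 8.21 ± 3.69 CPM in TG (lowest 1.97, median 7.28, highest 12.6) and 11.7 ± 3.21 CPM in WT (lowest 6.61, median 11.9, highest 16.6). Its lowest library was the cerebellum library. Its log2 difference was -0.50 ± 0.30, with an interval from -1.15 to 0.16, and -0.29 ± 0.13 with library class (adjusted p = 0.5677, edgeR). Each of the 8 had an adjusted p of 1.00 in edgeR without library class.

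The 8 relatives had a median log2 difference of -0.05, with 5 below 0 and 3 above, beside a median of -0.0007 over all genes tested. With library class their median was -0.08, with 6 below 0 and 2 above, beside 0.001 over all genes. Of the 19 aldehyde dehydrogenases other than Aldh7a1, 10 were below 0 without class and 15 with class, with medians of -0.01 and -0.08.

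**Figure D2:**
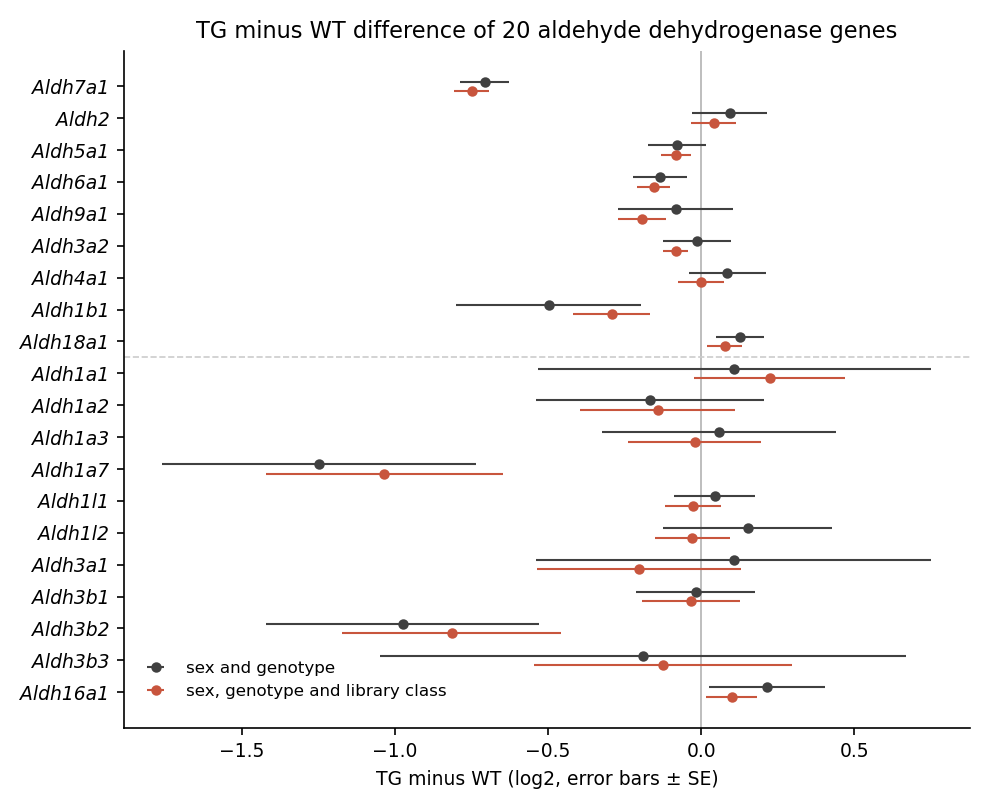
TG minus WT difference (horizontal axis, log2, error bars ± SE) of the 20 aldehyde dehydrogenases tested (vertical axis). Grey points are from the fit with sex and genotype, red points from the fit that adds library class. The dashed line divides the 9 genes from the rest of the family. Aldh7a1 stands at -0.71 and -0.75, and the other 8 lie between -0.50 and 0.13.

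The remaining 11 tested genes of the family include the retinaldehyde dehydrogenases Aldh1a1, Aldh1a2 and Aldh1a3, which make retinoic acid, and the folate enzymes Aldh1l1, an astrocyte marker, and Aldh1l2. Their TG minus WT values were 0.11 ± 0.64, -0.17 ± 0.37, 0.06 ± 0.38, 0.04 ± 0.13 and 0.15 ± 0.28 in that order. Aldh16a1 stood at 0.22 ± 0.19, Aldh3a1 at 0.11 ± 0.64, Aldh3b1 at -0.02 ± 0.20 and Aldh3b3 at -0.19 ± 0.86. None of these passed the test. Aldh1a7 stood at -1.25 ± 0.51 and Aldh3b2 at -0.97 ± 0.45, both with a mean below 2 CPM in each genotype and overlapping ranges. These 2 were the ones at an unadjusted p under 0.05 in edgeR, and both had an adjusted p of 1.00. Aldh1a7 is a close copy of Aldh1a1, and Aldh3b2 and Aldh3b3 of each other and of Aldh3b1, so reads may be split between them in ways that were not tested.

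Aldh7a1 was also lower relative to its relatives within each library. It made up 4.67% to 6.23% of the summed CPM of the 9 genes in TG libraries and 7.48% to 9.19% in WT libraries. The summed CPM of all 9 was 359 to 464 in TG libraries and 397 to 512 in WT libraries, so the genotypes overlapped. The ratio of Aldh7a1 to Aldh5a1 ran from 0.120 to 0.176 in TG and from 0.206 to 0.266 in WT. The ratios to Aldh2, Aldh6a1, Aldh4a1 and Aldh18a1 likewise did not overlap between the genotypes. The ratios to Aldh9a1, Aldh3a2 and Aldh1b1 did overlap, and these denominators are the 3 of the 8 whose levels differed most between hindbrain and olfactory libraries. Aldh2, whose ratio did not overlap, differed nearly as much as Aldh3a2 (0.36 ± 0.09 and 0.40 ± 0.05 on the log2 scale). The part of library class in the overlap was not tested. These ratios rest on the contrast that chose Aldh7a1 and are descriptions.

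**Figure D3:**
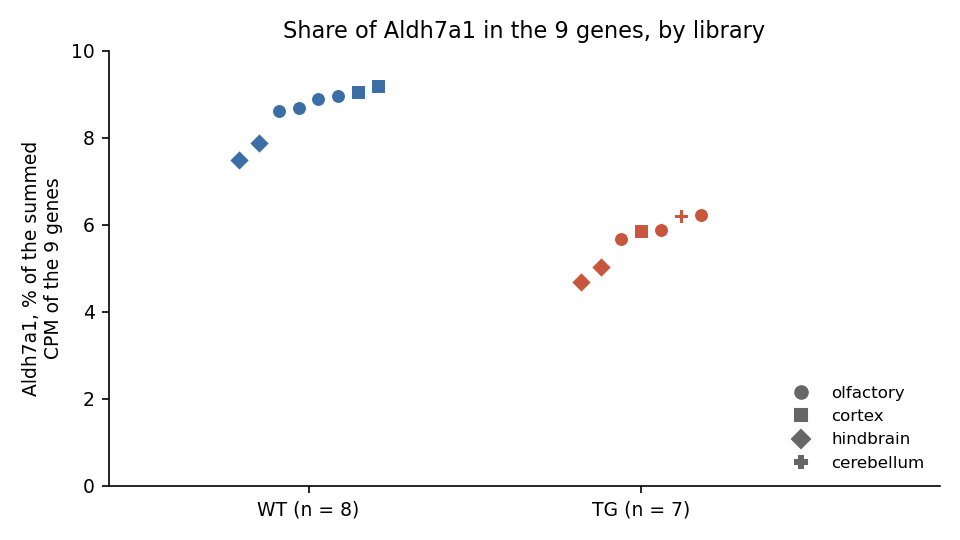
Aldh7a1 as a percent of the summed CPM of the 9 genes (vertical axis) in each library, by genotype (horizontal axis), with the marker shape giving the library class. Libraries are ordered by value within a genotype. TG libraries lie between 4.67% and 6.23% and WT libraries between 7.48% and 9.19%, and the hindbrain libraries are lowest in both.

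Sex did not pass the test for any aldehyde dehydrogenase. Between females and males, edgeR called 0.0408% of all genes and 0 of the 20, with 1 at an unadjusted p under 0.05; DESeq2 called 0 with 2 at that level and limma-voom 0 with 1. The edgeR gene was Aldh3b2, at -1.38 ± 0.44, female minus male (adjusted p = 0.934, edgeR). The largest values among the 9 were for Aldh1b1, at -0.37 ± 0.30, and Aldh2, at 0.24 ± 0.12.

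The TG effect did not pass a test of difference between the sexes for any of the 20. In that test edgeR called 0.0% of all genes and 0 of the 20, with 0 at an unadjusted p under 0.05 in edgeR, DESeq2 or limma-voom. Aldh9a1 had the largest value among the 9, with a TG effect of 0.23 ± 0.23 in females and -0.45 ± 0.25 in males, a difference of 0.68 ± 0.34 (adjusted p = 0.724, edgeR). The 4 TG females held both TG hindbrain libraries and the cerebellum library, and Aldh9a1 was high in these classes, at 37.1 to 45.2 CPM. With library class added to the fit, this test also called 0 of the 20, and the Aldh9a1 value of that fit is not given here. How much of the Aldh9a1 difference goes with library class was not tested.

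The levels of several relatives differed by library class more than by genotype. The classes were formed from these data, so class differences are descriptions, read against the share of all genes that differ as clearly. Between hindbrain and olfactory libraries, 50.4% of all genes tested did not overlap. Of the 9, Aldh2, Aldh9a1 and Aldh3a2 were higher in every hindbrain library and Aldh1b1 lower, which is 4 of 9 and near that background. Of the 20, 7 were higher and 3 lower.

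Aldh9a1, the carnitine and putrescine enzyme, stood at 42.1 ± 3.81 CPM in hindbrain (SD, n = 4) and 27.8 ± 3.48 CPM in olfactory libraries (SD, n = 7), a log2 difference of 0.65 ± 0.09. Aldh3a2, the fatty aldehyde enzyme, stood at 56.5 ± 3.68 CPM in hindbrain and 43.7 ± 1.81 CPM in olfactory libraries, a log2 difference of 0.40 ± 0.05. Aldh2 stood at 19.7 ± 1.51 CPM and 14.99 ± 1.56 CPM, a log2 difference of 0.36 ± 0.09. These 3 were also high in the cerebellum library, at 37.1, 58.4 and 19.0 CPM. Aldh1b1 went the other way, at 7.07 ± 0.90 CPM in hindbrain and 12.6 ± 1.92 CPM in olfactory libraries, a log2 difference of -0.79 ± 0.15. It was lowest in the cerebellum library, at 1.97 CPM from 33 counts.

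Outside the 9, Aldh1a1 stood at 58.1 to 78.9 CPM in hindbrain libraries, 72.0 CPM in the cerebellum library and 6.17 to 22.7 CPM in all others. Its hindbrain minus olfactory difference was 2.15 ± 0.27. Aldh1l1 and Aldh1l2 were higher in every hindbrain library than in every olfactory library, by 0.41 ± 0.11 and 0.83 ± 0.14. Aldh1a3, at 0.68 to 1.35 CPM in hindbrain and 1.97 to 3.35 CPM in olfactory libraries, was lower by 1.33 ± 0.27 on the log2 scale, from 12 to 61 counts per library.

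Cell markers moved with these classes. The summed level of the 12 oligodendrocyte markers ran from 18483 to 24003 CPM in hindbrain and from 1996 to 3793 CPM in olfactory libraries. The 12 astrocyte markers summed to 9352 to 11530 CPM and 4745 to 6002 CPM. The part of these cell types in the class differences of the enzymes was not tested.

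Between cortex and olfactory libraries, 37.8% of all genes did not overlap. Of the 9, Aldh5a1, the GABA enzyme, was the one that did not, at 144 ± 7.36 CPM in cortex (SD, n = 3) and 183 ± 12.6 CPM in olfactory libraries, a log2 difference of -0.35 ± 0.06. Of the 20, 1 was higher and 4 were lower. Between hindbrain and cortex libraries, 59.1% of all genes did not overlap. Of the 9, Aldh2, Aldh5a1, Aldh6a1, Aldh9a1, Aldh3a2 and Aldh4a1 were higher in every hindbrain library and none was lower, which is 6 of 9. Of the 20, 11 were higher and 2 lower. The median hindbrain minus cortex difference of the 9 was 0.37, beside 0.01 over all genes tested. Aldh18a1 differed little between these classes, at 17.4 ± 0.85 CPM in hindbrain, 17.0 ± 1.18 CPM in olfactory and 17.8 ± 2.35 CPM in cortex libraries.

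**Figure D4:**
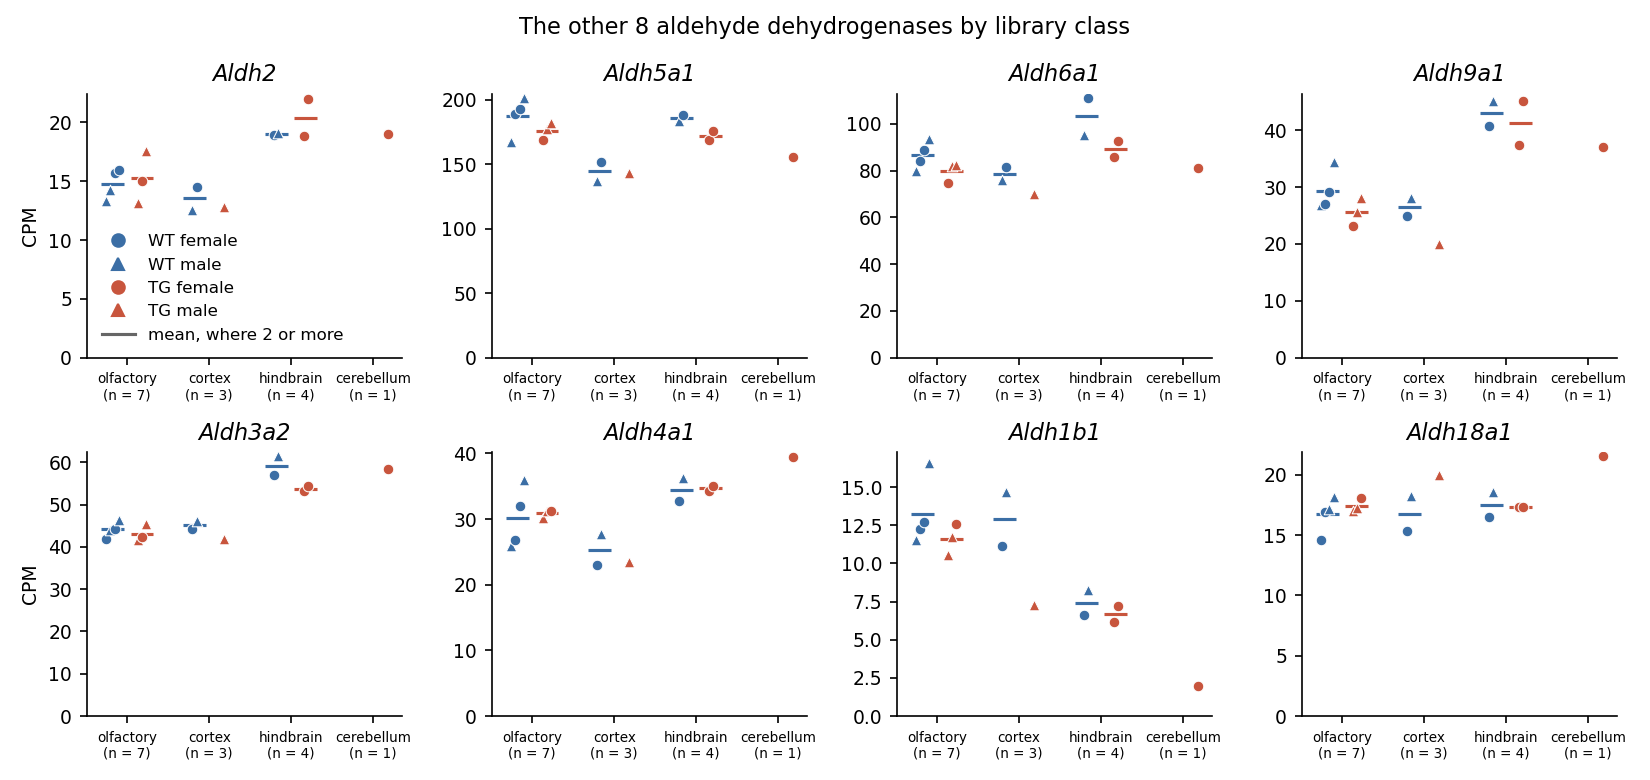
CPM (vertical axes) of the other 8 genes in each library, by library class (horizontal axes). Blue is WT and red is TG, circles are females and triangles males, and lines are means of 2 or more libraries. Aldh9a1, Aldh3a2 and Aldh2 are higher in hindbrain than in olfactory libraries and Aldh1b1 is lower, while the blue and red points of these genes lie close together within most classes.

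The TG effect did not pass a test of variation among classes for any of the 20 aldehyde dehydrogenases. With classes from single region genes, edgeR called 0.0117% of all genes and 0 of the 20, and with classes from list means 0.00583% of all genes and 0 of the 20. With either kind of class, 1 of the 20 was at an unadjusted p under 0.05 in edgeR. With classes from list means, limma-voom called 0, with 1 at that level. With classes from single genes, Aldh1a1 had the smallest p (adjusted p = 0.485, edgeR), with a TG effect of 0.48 ± 0.25 among olfactory, -0.70 ± 0.31 among hindbrain and 1.29 ± 0.41 among cortex libraries, the last resting on 1 TG library. Aldh1b1 followed among the 9 (adjusted p = 0.655, edgeR), at -0.21 ± 0.15, -0.07 ± 0.21 and -0.89 ± 0.25.

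Levels of different genes were compared per kilobase of merged exons. Aldh5a1 was the most abundant, at 30.5 ± 3.31 CPM per kb (SD, n = 15), followed by Aldh6a1 at 14.7 ± 1.74, Aldh9a1 at 9.32 ± 2.35 and Aldh3a2 at 8.57 ± 1.20 CPM per kb. Aldh1a1 at 6.52 ± 5.66, Aldh4a1 at 6.32 ± 0.99 and Aldh7a1 at 6.21 ± 1.60 CPM per kb came next. Aldh1b1 at 4.39 ± 1.64, Aldh18a1 at 4.32 ± 0.41 and Aldh2 at 3.16 ± 0.56 CPM per kb were the lowest of the 9. In this order only Aldh5a1 and Aldh6a1 were neighbours whose ranges over libraries did not overlap. Aldh7a1 was the 7th of the 20, and the 6th by the longest transcript. Its place depends on the genotype: at 7.58 ± 0.57 CPM per kb it was the 5th in WT (SD, n = 8), and at 4.64 ± 0.49 CPM per kb the 7th in TG (SD, n = 7).

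The other enzymes of these pathways were read from 9 lists with 102 genes, of which 93 were tested. In TG versus WT, edgeR called 0 of the 93, beside 0.111% of all genes, with 1 at an unadjusted p under 0.05. With library class it called 1 higher and 0 lower, beside 0.496% of all genes, with 11 at an unadjusted p under 0.05. The share of all genes at that unadjusted level is not given here, so the 11 are not read as an excess. The gene called was Aoc2, an amine oxidase that makes aldehydes from amines, in the polyamine and carnitine list of 12 tested genes. Aoc2 stood at 11.9 ± 3.50 CPM in TG (lowest 7.21, highest 17.5) and 8.81 ± 2.38 CPM in WT (lowest 5.55, highest 12.1), and the genotypes overlapped. Its log2 difference was 0.51 ± 0.09 with library class (adjusted p = 0.031, edgeR), with an adjusted p of 0.201 when classes came from list means and 1.00 without class.

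Of the lysine breakdown list, Aldh7a1's own pathway, 0 of 12 tested genes were called in either fit, with 8 above 0 and a median of 0.07 without class. Dlst, a subunit of the 2-oxoglutarate dehydrogenase complex, stood at 142 ± 6.29 CPM in TG and 132 ± 12.7 CPM in WT. Gcdh, which acts on glutaryl-CoA further down the pathway, stood at 35.5 ± 4.48 CPM in TG and 32.4 ± 2.00 CPM in WT. Neither passed, and with library class the log2 values were 0.09 ± 0.05 and 0.08 ± 0.06. Of the vitamin B6 list, 0 of 5 were called. Pdxp, which removes the phosphate of the active vitamin, stood at 173 ± 14.3 CPM in TG and 191 ± 36.4 CPM in WT.

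In the other 6 lists no gene was called in either fit, and the genes named here, from the 2 with the smallest p of each list, did not pass. In the proline and arginine list (0 of 8), Prodh, which starts proline breakdown ahead of Aldh4a1, stood at 31.5 ± 7.16 CPM in TG and 25.0 ± 4.40 CPM in WT. Its value was 0.22 ± 0.05 with library class (adjusted p = 0.093, edgeR). In the GABA list (0 of 10), these genes were Adhfe1 at -0.16 ± 0.10 and Slc25a12 at 0.07 ± 0.05. In the betaine and choline list (0 of 8), they were Sardh at -0.13 ± 0.07 and Bhmt2 at 0.39 ± 0.24. In the valine and pyrimidine list (0 of 14), they were Dpyd at -0.30 ± 0.11 and Mmut at -0.15 ± 0.07. In the fatty aldehyde and sphingolipid list (0 of 12), they were Agps at -0.12 ± 0.05 and Fa2h, which hydroxylates the fatty acids of myelin lipids, at -0.51 ± 0.17. In the list of amine and alcohol oxidation (0 of 12), they were the monoamine oxidases Maoa at -0.19 ± 0.07 and Maob at -0.29 ± 0.09. All of these are log2 differences with library class.

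Cell and region marker lists were checked beside the Aldh7a1 difference. Of the 12 oligodendrocyte markers, edgeR called 0 with or without class; 1 of 12 was above 0 with class, and the median was -0.24. Across all classes, which differ widely in these markers, the sums of the genotypes overlapped (TG 2462 to 21072 CPM, WT 1996 to 24003 CPM). Among hindbrain libraries, the 2 TG sums (18483 and 21072 CPM) lay below the 2 WT sums (21315 and 24003 CPM). With so few libraries, this order is a description and is not read as a difference. The single TG cortex library had a sum of 2774 CPM, also below both WT cortex libraries (4590 and 5673 CPM), which is likewise a description. Among olfactory libraries, the TG sums (2462 to 3718 CPM) lay within the WT range (1996 to 3793 CPM). Of the 4 tested blood genes, edgeR called 0, with a median of -1.19 with class; their summed CPM was 25.4 to 83.9 for TG libraries and 43.3 to 480 for WT libraries. With class, the olfactory ensheathing markers had a median of 0.36 (4 of 7 above 0), the ependyma and choroid markers -0.17 (0 of 5) and the hypothalamus markers -0.44 (2 of 9). The astrocyte, neuron, oligodendrocyte precursor, microglia and vascular lists had medians from -0.06 to 0.04, and the excitatory, striatal, cerebellum, hindbrain and olfactory region lists from -0.13 to 0.06. edgeR called 0 genes of each of these lists with or without class. Without class the cerebellum and hindbrain lists had medians of 1.66 and -1.21, and all the region lists but the olfactory one formed the classes. No list had all its members at 0. The part of these cells in the Aldh7a1 difference was not tested.

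None of the genes next to Aldh7a1 on chromosome 18 passed the test in the fit with sex. Within 1 Mb lay 14 genes of the table, 10 of them tested, with TG minus WT values from -0.99 to 0.32, 6 below 0 and 4 above. edgeR called 0 of the 10, beside 0.111% of all genes tested, with 1 at an unadjusted p under 0.05. That one was Phax, an RNA export adaptor whose annotated span shares 10423 bases with that of Aldh7a1. Phax ranged from 31.7 to 35.996 CPM over TG and from 28.6 to 32.9 CPM over WT libraries, at 0.12 ± 0.05 (adjusted p = 1.00, edgeR), the opposite sign to Aldh7a1. Whether the counting used strand is not given in the sources used here, so reads of overlapping exons could be assigned to either gene.

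The nearest gene on the other side, Gramd3, ranged from 5.98 to 12.7 CPM over TG and from 7.36 to 17.97 CPM over WT libraries, at -0.36 ± 0.22. Lmnb1, a lamin of the nuclear envelope, stood at 0.10 ± 0.20, and Marchf3, a ubiquitin ligase, at 0.32 ± 0.38. Megf10, a phagocytic receptor of astrocytes, stood at -0.06 ± 0.24 and Prrc1 at -0.12 ± 0.07. With library class, 0.496% of all genes and 1 of the 10 were called. The one was Gm19500, a predicted gene 832 kb away, at -0.80 ± 0.15 (adjusted p = 0.041, edgeR). It was not called with classes from list means (adjusted p = 0.342, edgeR), and its levels overlapped, with TG libraries at 2.96 to 36.2 CPM and WT libraries at 3.50 to 56.6 CPM.

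**Figure D5:**
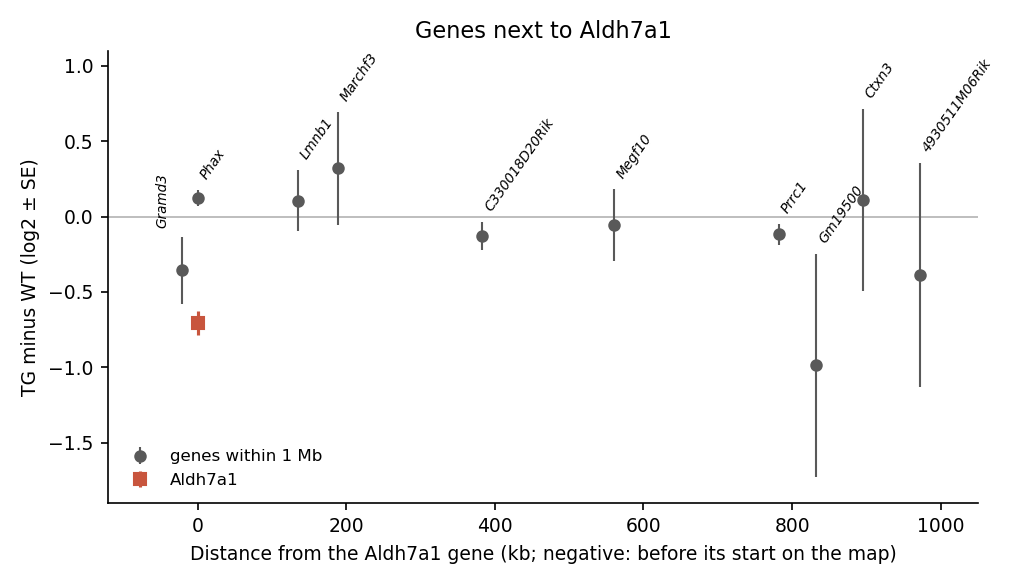
TG minus WT difference (vertical axis, log2 ± SE, fit with sex) of the 10 tested genes within 1 Mb of Aldh7a1, by distance in kb (horizontal axis). The red square is Aldh7a1 at -0.71. Phax, which overlaps it on the map, stands at 0.12, and Gm19500, at -0.99 ± 0.74, is the one neighbour below Aldh7a1.

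The likeness of other genes to Aldh7a1 was measured over 14 libraries as Pearson r of log2 CPM after the mean of each library class was taken out, among 14191 genes. The libraries of both genotypes enter, so genes that differ between the genotypes rank high by construction. The 6 most alike were Pofut1 on chromosome 2 (r = 0.958), Pcdhgb6 on chromosome 18 (r = 0.958), Gpr55 on chromosome 1 (r = 0.957), Ermard on chromosome 17 (r = 0.955), and Nav1 and Tnnt2 on chromosome 1 (r = 0.948 and r = 0.943). The most opposite were Pcdhgb8 and Pcdhb20 on chromosome 18 (r = -0.971 and r = -0.955) and Ipo9 on chromosome 1 (r = -0.937). None of these is an aldehyde dehydrogenase, and reads of the clustered protocadherins, which share exons or sequence, may be split between copies.

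Pofut1, which adds fucose to Notch receptors, ranged from 25.9 to 38.4 CPM over TG and from 41.8 to 47.9 CPM over WT libraries. Ermard ranged from 22.2 to 33.8 CPM in TG libraries and from 37.5 to 55.7 CPM in WT ones, and Nav1, a microtubule-binding protein of neurons, at 77.4 to 151 CPM and 208 to 320 CPM. Each of these 3, like Aldh7a1, had no TG library at the level of a WT library. Within the 9, r with Aldh7a1 was 0.81 for Aldh6a1, 0.69 for Aldh9a1, 0.62 for Aldh1b1, 0.59 for Aldh5a1, 0.55 for Aldh3a2, 0.10 for Aldh4a1, -0.03 for Aldh2 and -0.39 for Aldh18a1. These are descriptions over libraries that share their classes and genotypes.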

How the data were processed

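The authors deposited whole-number read counts per gene for 15 libraries. Per the labels' protocols, total RNA went through a stranded kit with ribosomal depletion, although the molecule is labelled polyA RNA. Per the submitters' processing notes, STAR 2.7.5b, featureCounts and Subread were used with GRCm38. Strand and multi-mapping settings are not given in the sources used here. Of 27179 gene IDs, 25275 were named by RefSeq (GRCm38.p6) and 18 by GENCODE, whose vM21 exons gave lengths and strands; 1886 IDs without a symbol held 0.836% of counts.

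The tests were run with edgeR 4.0.16 under R 4.3.3 (filterByExpr over 4 genotype-by-sex groups, TMM, robust quasi-likelihood F test, Benjamini-Hochberg over 17151 genes). Genotype was tested with sex as a covariate. The 95% intervals use the fit's SE and 12 residual degrees of freedom. No libraries were near-duplicates (lowest chi-square per gene 6.34). Depth limits low genes: 3 counts are 0.0837 CPM in the deepest and 0.198 CPM in the shallowest library, counting error only. The fit was tested on simulated data.

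Library classes were planned as Ward clusters of the z-scored means of 5 region lists. Those put WT male 2 (Omp at 50.2 CPM) and TG male 3 (Omp at 91.4 CPM) with cortex, so clusters of the log2 CPM of the single genes of those lists, chosen after seeing the data, are used, with the planned ones given beside them.

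The members and lists were chosen with earlier results of these data known. Named by rule were the family, of each pathway list genes called or else the 2 with the smallest p, the nearest or called neighbours within 1 Mb, and the 6 most and 3 least alike genes. Results for some genes that this rule named are not reported here. Alternatives were other size factors, tools (DESeq2 1.42.0, limma-voom 3.58.1), filters, covariates, library subsets and each library left out.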

Additional observations from a re-analysis of the deposited data

Results flagged for a closer look

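Aldh1a7 in WT had 1 library far from the other 7: WT male 3, a hindbrain library, stood at 1.76 CPM, from 43 counts, beside a WT median of 0.508 CPM. Of the 40 sets of libraries checked in this way (20 genes in each genotype) this was the one so marked, and chance marks about 1 in 20.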

How the results depend on the processing

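Aldh7a1 stayed lower in TG under all 47 alternatives, from -0.78 to -0.67 on the log2 scale. It was chosen for this difference and its genotypes do not overlap, so leaving out libraries could not reverse the sign. These values are a description. Of the other 19 aldehyde dehydrogenases, 0 were called under any alternative, the smallest adjusted p being 0.287 (edgeR; Aldh6a1, -0.18 ± 0.05, with library class and without WT male 2). Of their 882 values under alternatives, 136 from 13 genes, 4 of them among the 9, had the other sign than the reported value, so no direction is read from uncalled values. Calls for sex, genotype by sex and genotype by class also stayed at 0 under every alternative run.

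The count of all genes called in TG versus WT was 19. It was 85 with library class, 43 with classes from list means, 7 without hindbrain and cerebellum libraries, 41 and 11 when those 2 kinds of class were then added, 46 among olfactory libraries and 1 among those named so by list means, 8 in females, 1 in males and 40 with DESeq2. Leaving out each library gave 14 to 21, and with library class 56 to 86, the lowest without TG male 4. The cause was not tested.

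Whether the replicate number in the titles pairs the samples could not be told, because deviations from a group mean also hold the library class. Deviations of same-numbered libraries had a median r of -0.03 (21 pairs, -0.63 to 0.92), and 7 pairs were above 0.1. Between libraries with other numbers the median r was -0.05 (63 pairs, -0.84 to 0.78), and 23 pairs were above 0.1. With the replicate block, Aldh7a1 stood at -0.72 ± 0.07, 16 genes were called, and 0 of the other aldehyde dehydrogenases. Another scaling moved the median of all genes by less than 0.1 on the log2 scale. Genes under about 2 CPM (Aldh1a3, Aldh1a7, Aldh3a1, Aldh3b2, Aldh3b3) rest on few counts, which limits what differences can be seen.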
